A study of Mus musculus with 4 samples.

Results

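Endothelial cells, which line blood vessels, were examined for the genes of the desmosome, a junction of epithelial and heart muscle cells that ties the intermediate filaments of neighbouring cells together. The 10 genes described, out of 54446 in the deposited table, are Pkp2, Pkp3, Pkp4, Dsp, Jup, Dsg2, Dsc2, Perp, Ppl and Evpl, taken by gene name; each name matched 1 row. Of 4 libraries, 2 carry the name Zeb1-CKO and 2 the name control. The genotype field of the Zeb1-CKO libraries speaks of a knockdown of Zeb1, the gene of a transcription factor that represses epithelial genes. All 4 are from C57BL/6 mice at postnatal day 16, each from 100 endothelial cells that were sorted by flow cytometry out of the retina. No label gives the deleted exons, a Cre line, pooling of animals or 1 animal per library. Every p-value below therefore rests on the scatter of these 4 libraries, which may be technical.

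In a desmosome, the desmogleins and desmocollins are cadherins that bridge the gap between cells. Inside the cell they bind the armadillo proteins plakoglobin (Jup) and the plakophilins, and these bind the plakin desmoplakin (Dsp), which holds the keratin filaments. Endothelial cells are not known for classical desmosomes: their junctions are built on VE-cadherin, to which plakoglobin and Pkp4 also bind, and in some vessels desmoplakin links such junctions to vimentin.

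The values are FPKM, fragments per kilobase of transcript and scaled to the fragments of the library, so that levels of different genes may be set side by side. From the steps between low values, the depths were estimated at 22.0 and 16.8 M fragments in the Zeb1-CKO libraries and at 20.6 and 11.2 M in the controls. Zeb1 itself was at 8.66 and 7.07 FPKM in Zeb1-CKO libraries, against 10.7 and 11.1 FPKM in the controls, a log2 fold change of -0.43 (SE 0.15) that did not pass the test (limma's adjusted p = 0.235). A value per gene cannot separate a deleted part from the rest of the transcript, so it checks the labels weakly. The label of the cells was checked on 10 endothelial markers, whose summed level was 4308 and 4713 FPKM in Zeb1-CKO libraries, against 3800 and 4539 FPKM in the controls. Most of that sum is Cldn5, at 3133 and 3500 FPKM in Zeb1-CKO libraries, against 2692 and 3428 FPKM in the controls. Of the 10 markers, 6 had log2 fold changes above 0 and none passed the test. Markers of pericytes and smooth muscle, led by Rgs5 and Kcnj8, were also measured, with sums of 1467 and 1562 FPKM in Zeb1-CKO libraries, against 2101 and 1723 FPKM in the controls. Rgs5 alone was at 1201 and 1262 FPKM in Zeb1-CKO libraries, against 1673 and 1348 FPKM in the controls. In every library Rgs5 stood above each endothelial marker but Cldn5, while the other pericyte and smooth muscle markers were lower than Rgs5. The part of these cells in the desmosome values was not tested. Fewer cells of a type and less RNA per cell cannot be told apart in such bulk values.

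Promoters are shown because ZEB1 is known to bind E-boxes of the forms CAGGTG and CAGGTA and the comparison is of cells in which Zeb1 is targeted. RefSeq (GRCm38.p6) gave windows for 3 of the 10 genes, Pkp4 (with 2 start sites), Jup and Dsp; Pkp2, Pkp3, Dsg2, Dsc2, Perp, Ppl and Evpl had none. Each window holds 250 bases before the start site and the first 20 transcribed, with any CAGGTG or CAGGTA, on either strand, in capitals.
Dsp, chr13:38151044-38151313, plus strand: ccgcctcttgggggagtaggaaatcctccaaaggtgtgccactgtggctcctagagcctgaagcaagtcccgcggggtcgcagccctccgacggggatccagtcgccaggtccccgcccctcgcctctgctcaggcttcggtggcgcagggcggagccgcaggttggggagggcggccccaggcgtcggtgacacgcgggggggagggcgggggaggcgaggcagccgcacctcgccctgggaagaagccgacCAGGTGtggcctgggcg
Jup, chr11:100397771-100398040, minus strand: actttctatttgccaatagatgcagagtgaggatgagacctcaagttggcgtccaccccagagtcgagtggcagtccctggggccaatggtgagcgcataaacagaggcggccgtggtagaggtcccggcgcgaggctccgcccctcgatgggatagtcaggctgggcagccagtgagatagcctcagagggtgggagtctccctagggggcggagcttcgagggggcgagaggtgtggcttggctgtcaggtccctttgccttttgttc
Pkp4, upstream start, chr2:59160600-59160869, plus strand: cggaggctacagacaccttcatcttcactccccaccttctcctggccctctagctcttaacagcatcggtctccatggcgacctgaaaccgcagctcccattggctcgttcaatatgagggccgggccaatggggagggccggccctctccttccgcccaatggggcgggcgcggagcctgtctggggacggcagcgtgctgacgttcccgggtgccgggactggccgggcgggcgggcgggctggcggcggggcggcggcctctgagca
Pkp4, downstream start, chr2:59161619-59161888, plus strand: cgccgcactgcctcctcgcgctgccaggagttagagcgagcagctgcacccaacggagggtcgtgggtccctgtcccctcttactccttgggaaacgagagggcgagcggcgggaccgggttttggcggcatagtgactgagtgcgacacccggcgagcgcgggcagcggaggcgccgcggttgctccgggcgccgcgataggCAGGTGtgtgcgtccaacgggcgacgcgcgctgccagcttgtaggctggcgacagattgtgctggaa
The Dsp window held 1 CAGGTG, which begins at base 4 of the transcript. The downstream Pkp4 window held 1 CAGGTG, which begins 47 bases before its start site. The windows of Jup and of the upstream Pkp4 start held neither form. Among all 32851 RefSeq windows of this length, 18.4% held CAGGTG, 10.6% held CAGGTA and 26.8% held at least 1 of them, on either strand, so a match is common and is given as a description only.

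Plakophilins 2 and 3, the desmoglein Dsg2 and the membrane protein gene Perp rose in Zeb1-CKO cells, while plakoglobin was abundant in both genotypes and Pkp4 had lower values that did not pass the test. Desmoplakin and Dsc2 had higher values in Zeb1-CKO cells but stayed under 1 FPKM, and the plakins Ppl and Evpl were low and overlapped between genotypes. The test was limma on log2(FPKM + 1) over the 13651 genes that averaged 1 FPKM or more, with an adjusted p under 0.05 as the threshold. Of the 10 genes, 6 reached that mean, and of these 4 were called higher and none lower. Over all genes tested, 2.23% were called higher and 0.901% lower. Without Zeb1-CKO replicate 1, and likewise without Zeb1-CKO replicate 2, 1 desmosome gene was called higher, Pkp3. With an unadjusted p under 0.05, Pkp4 would be the 1 lower member. A gene nearly silent in controls averages 1 FPKM only where Zeb1-CKO libraries are higher, so the count over fitted genes is no measure of the whole group. Among fitted genes, 27.1% had both Zeb1-CKO libraries above both controls. Among all 10 desmosome genes, 6 had both Zeb1-CKO libraries above both controls, 1 had both below and 3 overlapped. Of the 38986 genes above 0 in any library, 17.8% had both Zeb1-CKO libraries above both controls and 16.3% had both below. With 2 libraries a genotype, an exact permutation test of a single value cannot go below a two-sided p of 0.333.

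**Figure D1:**
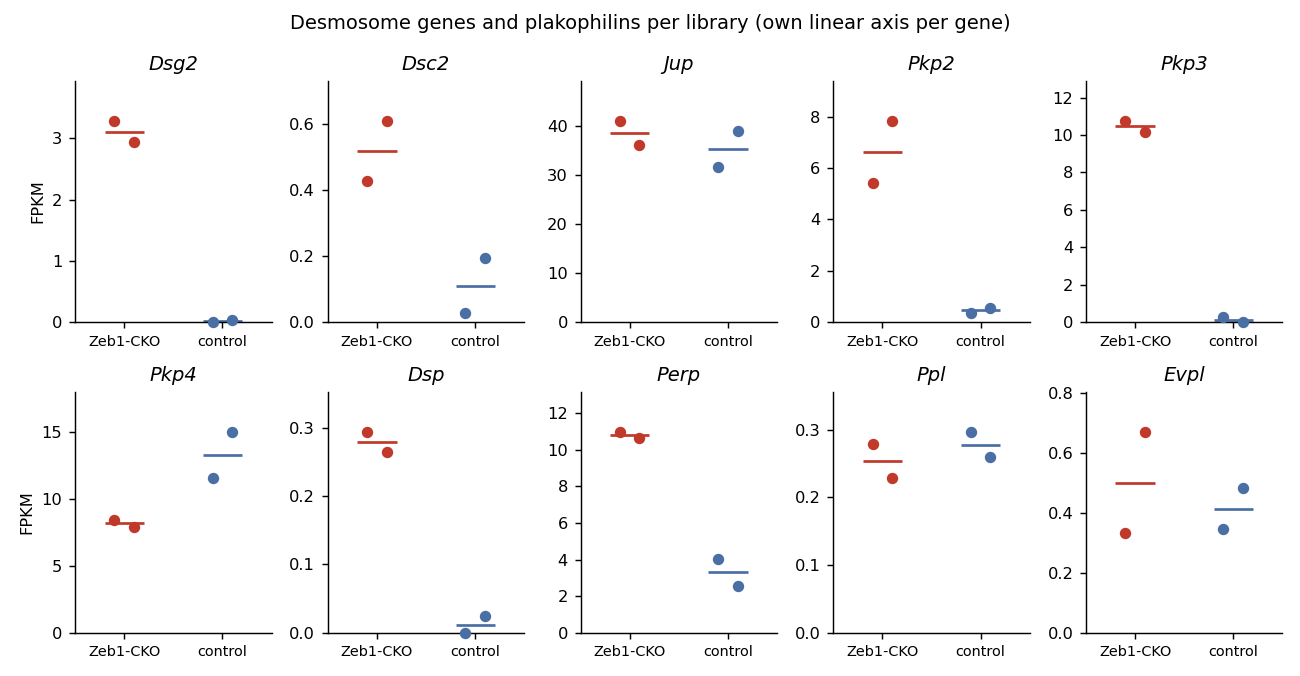
Level of each of the 10 genes in FPKM (vertical axis, linear, from 0, its own range for each gene) in 2 Zeb1-CKO libraries (red, left) and 2 control libraries (blue, right); points are libraries and lines are means. Dsg2, Dsc2, Pkp2, Pkp3, Dsp and Perp lie higher in both Zeb1-CKO libraries, Pkp4 lies lower, and Jup, Ppl and Evpl overlap.

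The desmosomal cadherins that are known from simple epithelia and heart are Dsg2 and Dsc2, whose genes lie in the desmosomal cadherin cluster of chromosome 18 (mm10). Dsg2 (20558074 to 20604521, plus strand) was at 3.28 and 2.94 FPKM in Zeb1-CKO libraries, was listed at 0 in control 1 and was at 0.0324 FPKM in control 2. On its longest transcript of 5766 bases the Zeb1-CKO values correspond to about 415 and 284 fragments, against about 2.09 fragments in control 2. The log2 fold change of Dsg2 was 2.02 (SE 0.20, 95% interval 1.51 to 2.52), with limma's adjusted p at 0.0105, on a scale that understates the change of low genes. An antisense gene, Gm16090, shares 330 of the 8268 exon bases of Dsg2 in libraries that do not mark strand; it was at 0.166 FPKM in Zeb1-CKO 1, at 0.0685 FPKM in control 1 and listed at 0 in the other libraries, far under Dsg2 in Zeb1-CKO cells.

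Dsc2 (20030633 to 20059554, minus strand) was at 0.428 and 0.608 FPKM in Zeb1-CKO libraries, against 0.0277 and 0.193 FPKM in the controls. These values correspond to about 43.5 and 47.1 fragments in Zeb1-CKO cells and to about 2.63 and 10.03 fragments in control cells. The genotypes did not overlap, but Dsc2 was under the mean needed for the test, and in the fit with no filter its log2 fold change was 0.45 (SE 0.17; limma's adjusted p = 0.533). The remaining 7 cadherins of the cluster (Dsg1a, Dsg1b, Dsg1c, Dsg3, Dsg4, Dsc1 and Dsc3), which are known from skin and other stratified epithelia, were all under 0.1 FPKM in every library. The cluster begins 14.4 to 15.0 Mb from the start site of Zeb1 on the same chromosome, measured from start site to start site. Of the summed FPKM of the 9 desmosomal cadherins, Dsg2 made up 88.0% and 79.7% in the Zeb1-CKO libraries, with sums of 3.73 and 3.69 FPKM. In the controls the sums were 0.0377 and 0.343 FPKM, too low for shares to be read.

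Plakoglobin, encoded by Jup (chromosome 11, 100368958 to 100397763, minus strand), is shared by desmosomes and adherens junctions and was the most abundant of the 10 genes in both genotypes. Jup was at 41.1 and 36.3 FPKM in Zeb1-CKO libraries, against 31.8 and 39.0 FPKM in the controls. The genotypes overlapped, and the log2 fold change of 0.13 (SE 0.16) had a 95% interval of -0.26 to 0.52, with limma's adjusted p at 0.726. Among all genes of the table, Jup ranked 1227th by mean FPKM in Zeb1-CKO cells and 1305th in control cells.

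The plakophilins are armadillo proteins that cluster desmosomal cadherins and recruit desmoplakin. Pkp3 (chromosome 7, 141078218 to 141090510, plus strand), the plakophilin found in nearly all epithelia, was at 10.7 and 10.2 FPKM in Zeb1-CKO libraries, against 0.249 and 0.0115 FPKM in the controls. The value in control 2 is less than 1 fragment would give on the longest transcript of 2919 bases, and that in control 1 corresponds to about 15.0 fragments, so both control values rest on few fragments. By the ratio of mean FPKM, Pkp3 was 80.2-fold higher in Zeb1-CKO cells, against control values as small as these. The log2 fold change of Pkp3 was 3.35 (SE 0.19, 95% interval 2.89 to 3.81), with limma's adjusted p at 0.00171, which put it at rank 22 of the 304 genes called higher when these are ordered by fold change on this scale.

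Pkp2 (chromosome 16, 16213318 to 16272712, plus strand), the plakophilin of heart muscle and simple epithelia, was at 5.41 and 7.82 FPKM in Zeb1-CKO libraries, against 0.362 and 0.565 FPKM in the controls. It was 14.3-fold higher by the ratio of mean FPKM, and the Zeb1-CKO libraries differed from each other more than the controls did in FPKM. Its log2 fold change was 2.36 (SE 0.22, 95% interval 1.81 to 2.91; limma's adjusted p = 0.00827). The size and order of the fold changes depended on the pseudocount: with 0.1 FPKM added in place of 1, the log2 fold change was 5.74 for Pkp3, 4.80 for Dsg2 and 3.58 for Pkp2, so that Dsg2 stood above Pkp2. In the controls the values of Pkp2 stood on about 21.8 and 18.5 fragments. Pkp1, the plakophilin of stratified epithelia, was at 0.0875 and 0.0687 FPKM in Zeb1-CKO libraries, against 0.00823 and 0.0107 FPKM in the controls, and was not fitted.

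Pkp4 (chromosome 2, 59160850 to 59355208, plus strand), also called p0071, is a relative of the plakophilins that is mainly found at adherens junctions. Pkp4 was at 8.43 and 7.89 FPKM in Zeb1-CKO libraries, against 11.5 and 15.0 FPKM in the controls. Both Zeb1-CKO values lay below both controls, with a log2 fold change of -0.63 (SE 0.17, 95% interval -1.05 to -0.21), but limma's adjusted p of 0.133 did not pass. Over all tested genes, 22.3% had both Zeb1-CKO libraries below both controls. Summed markers of pericytes and smooth muscle were also lower beside it, at 1467 and 1562 FPKM in Zeb1-CKO libraries, against 2101 and 1723 FPKM in the controls, with all 8 markers fitted, all 8 log2 fold changes below 0, and 1 of them, Tagln, called lower; none of the 8 was at 0. The part of these cells in the values of Pkp4 was not tested.

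**Figure D2:**
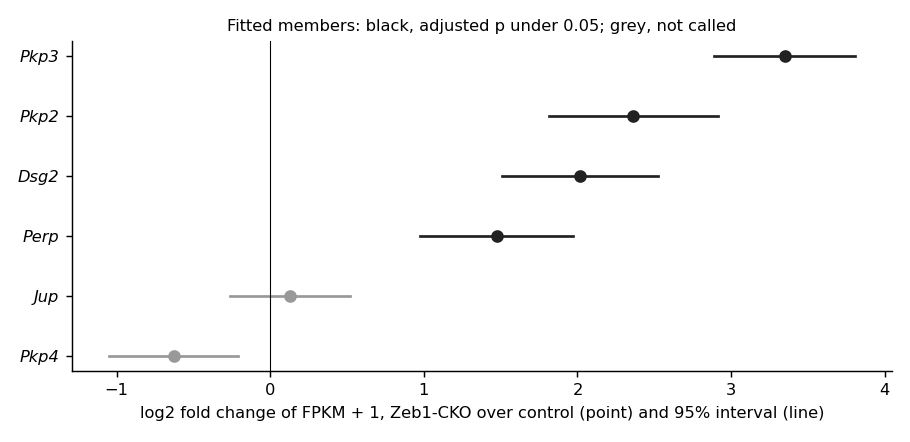
Log2 fold change of FPKM + 1, Zeb1-CKO over control (horizontal axis, points), with 95% intervals (lines) for the 6 fitted genes; black marks genes with an adjusted p under 0.05. Pkp3, Pkp2, Dsg2 and Perp lie at 3.35, 2.36, 2.02 and 1.47, while the intervals of Jup and Pkp4 run from -0.26 to 0.52 and from -1.05 to -0.21.

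The make-up of the plakophilin family differed between the genotypes. Summed over Pkp1 to Pkp4, the level was 24.7 and 26.0 FPKM in Zeb1-CKO libraries, against 12.2 and 15.6 FPKM in the controls. Pkp3 took 43.5% and 39.2% of that sum in the Zeb1-CKO libraries, against 2.05% and 0.0735% in the controls. Pkp2 took 21.9% and 30.1% in the Zeb1-CKO libraries, against 2.98% and 3.63% in the controls. Pkp4 thus made up 34.2% and 30.4% of plakophilin FPKM in Zeb1-CKO libraries, against 94.9% and 96.2% in the controls. For each of these 3 genes the shares did not overlap between genotypes; no test was made of the shares, which follow from the levels already given.

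**Figure D3:**
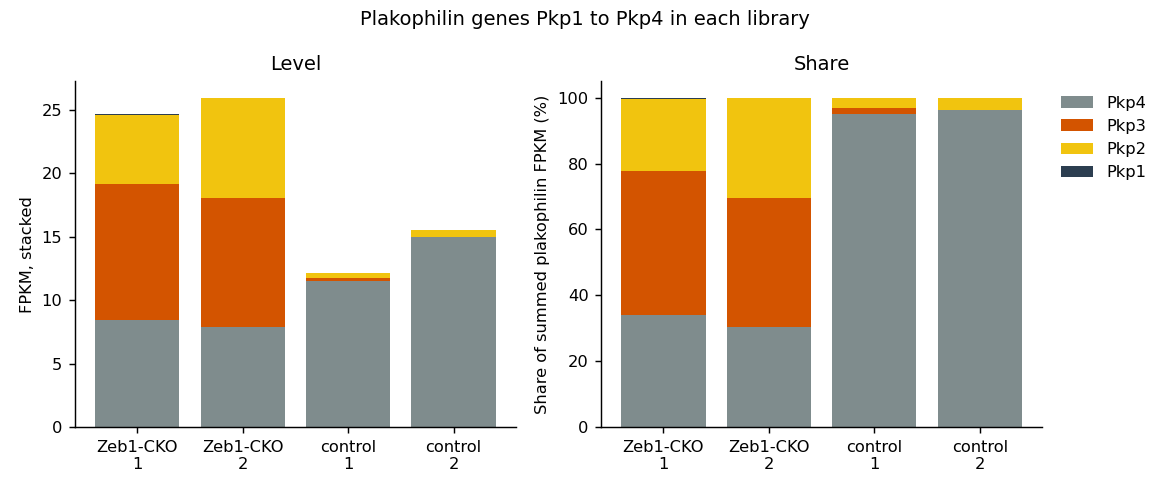
Plakophilin genes in each of the 4 libraries, as stacked FPKM (left, linear axis from 0) and as the share of their summed FPKM in percent (right). Pkp4 fills 94.9% and 96.2% of the control bars, while Pkp3 and Pkp2 together fill most of the Zeb1-CKO bars.

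Desmoplakin, encoded by Dsp (chromosome 13, 38151294 to 38198577, plus strand), is the plakin that anchors intermediate filaments and is needed for any complete desmosome. Dsp was at 0.294 and 0.264 FPKM in Zeb1-CKO libraries, was listed at 0 in control 1 and was at 0.0240 FPKM in control 2. On its longest transcript of 9592 bases the Zeb1-CKO values correspond to about 61.9 and 42.5 fragments, against 0 and about 2.58 fragments in the controls. The genotypes did not overlap, but Dsp was too low for the test; with no filter its log2 fold change was 0.34 (SE 0.080; limma's adjusted p = 0.326). Its level in Zeb1-CKO cells was 0.715% and 0.729% of that of Jup in the same library, whereas Pkp3 was at 26.1% and 28.1% and Dsg2 at 7.99% and 8.11% of Jup. The antisense gene Gm10129 shares 499 of the 9659 exon bases of Dsp; it was listed at 0 in both Zeb1-CKO libraries and in control 1, and was at 0.136 FPKM in control 2, above the level of Dsp there.

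Perp (chromosome 10, 18845020 to 18857073, plus strand) encodes a tetraspan membrane protein that is induced by p53 and p63 and needed for desmosomes in skin. It was at 11.0 and 10.6 FPKM in Zeb1-CKO libraries, against 4.03 and 2.58 FPKM in the controls. Of the 4 genes that rose, Perp was the one above 1 FPKM in both controls, and it was 3.27-fold higher by the ratio of mean FPKM. The log2 fold change was 1.47 (SE 0.20, 95% interval 0.98 to 1.97; limma's adjusted p = 0.0239). Its relative Tmem47 was at 19.2 and 21.2 FPKM in Zeb1-CKO libraries, against 10.2 FPKM in each control, a log2 fold change of 0.92 (SE 0.14; limma's adjusted p = 0.0305). The transcription factor gene Trp53 was at 38.5 and 41.7 FPKM in Zeb1-CKO libraries, against 42.5 and 45.7 FPKM in the controls (limma's adjusted p = 0.653). Trp63 was under 0.1 FPKM in every library.

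Ppl and Evpl encode periplakin and envoplakin, plakins of the cornified envelope of stratified epithelia that also bind desmosomes. Ppl (chromosome 16, 5086291 to 5132421, minus strand) was at 0.279 and 0.228 FPKM in Zeb1-CKO libraries, against 0.297 and 0.259 FPKM in the controls. Evpl (chromosome 11, 116220559 to 116238077, minus strand) was at 0.331 and 0.670 FPKM in Zeb1-CKO libraries, against 0.348 and 0.481 FPKM in the controls. Both overlapped between genotypes and were under the mean needed for the test. Their values stood on about 18.04 to 71.6 fragments a library. Of 5 genes that work with them in the cornified envelope (Ivl, Kazn, Tgm1, Tgm3 and Lor), only Kazn reached the mean needed for the test, at 2.40 and 3.73 FPKM in Zeb1-CKO libraries, against 3.91 and 3.88 FPKM in the controls (limma's adjusted p = 0.531), and Ivl was listed at 0 in all 4.

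Set in order of mean FPKM, the genes in Zeb1-CKO cells ran from Jup through Perp, Pkp3, Pkp4, Pkp2, Dsg2, Dsc2, Evpl and Dsp to Ppl. Perp and Pkp3, Dsc2 and Evpl, and Dsp and Ppl were neighbours whose libraries overlapped. In control cells the order ran from Jup through Pkp4, Perp, Pkp2, Evpl, Ppl, Pkp3, Dsc2 and Dsg2 to Dsp. There the libraries of Pkp2 and Evpl overlapped, as did those of each pair of neighbours from Pkp3 to Dsp. Pkp4 was thus behind only Jup in control cells, and in Zeb1-CKO cells Perp and Pkp3 stood above it as well. Among the 13651 fitted genes, Ankrd22 and Gpa33, the gene of an intestinal epithelial surface antigen, were among the 3 closest to Pkp3 over the 4 libraries, at Euclidean distances of 0.304 and 0.370 in log2(FPKM + 1). Ankrd22 was at 8.99 and 10.8 FPKM in Zeb1-CKO libraries, against 0.105 FPKM in control 1, and was listed at 0 in control 2.

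Other genes tied to desmosomes were counted in 7 lists of 38 genes in all, of which 19 were fitted. Of these 19, 5 were called higher, none lower, and 14 did not pass, against 2.23% of all fitted genes higher and 0.901% lower. Without either Zeb1-CKO library, 2 were called higher. Of the 5 called, Krt7, Krt8, Krt18 and Cdh1 were under 1 FPKM in both controls and reached the mean needed for the test through the Zeb1-CKO libraries, so this count too is no measure of the lists as a whole. At an unadjusted p under 0.05, 8 of the 19 would pass, Des with a lower value and 7 with higher values, as would 2438 of the 13651 fitted genes. The other desmosomal family genes, Pkp1 and the 7 cadherins above, were all unfitted.

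Of 9 intermediate filament genes, Krt7, Krt8 and Krt18, keratins of simple epithelia of the kind that desmoplakin anchors, rose, while Krt10, Vim and Des did not pass and Krt5, Krt14 and Krt19 were not fitted. Krt18 was at 15.2 and 24.4 FPKM in Zeb1-CKO libraries, against 0.343 and 0.249 FPKM in the controls, with a log2 fold change of 3.97 (SE 0.24). Krt8, its usual partner in filaments, was at 4.80 and 6.03 FPKM in Zeb1-CKO libraries, against 0.0274 and 0.0915 FPKM in the controls, with a log2 fold change of 2.59 (SE 0.20). Krt7 was at 2.82 and 2.77 FPKM in Zeb1-CKO libraries, against 0.00311 FPKM in control 1, and was listed at 0 in control 2. Limma's adjusted p was 0.00231 for Krt18, 0.00399 for Krt8 and 0.0125 for Krt7. Vim, the main intermediate filament gene of endothelium, was at 125 and 91.7 FPKM in Zeb1-CKO libraries, against 111 and 115 FPKM in the controls, and the genotypes overlapped.

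Among 4 classical cadherins, Cdh1 (E-cadherin) rose, with 22.4 and 22.3 FPKM in Zeb1-CKO libraries, against 0.156 and 0.0217 FPKM in the controls (log2 fold change 4.43, SE 0.16; limma's adjusted p = 0.000603). Cdh5 (VE-cadherin) was at 84.6 and 85.7 FPKM in Zeb1-CKO libraries, against 97.6 and 100.3 FPKM in the controls, and did not pass (limma's adjusted p = 0.431). Cdh2 did not pass either and Cdh3 was not fitted. None of the 4 fitted armadillo and catenin relatives passed. Ctnnb1 (beta-catenin, the nearest relative of plakoglobin), which had the highest mean over the 4 libraries, was at 182 and 151 FPKM in Zeb1-CKO libraries, against 118 and 168 FPKM in the controls (limma's adjusted p = 0.619). Ctnna1 (alpha-catenin, which links cadherin complexes to actin) was at 179 and 162 FPKM in Zeb1-CKO libraries, against 123 and 130 FPKM in the controls; the genotypes did not overlap, but limma's adjusted p of 0.176 did not pass. Of 4 other plakins, 3 were fitted and none passed. Plec, the gene of plectin, was nearest to the threshold, at 19.4 and 19.1 FPKM in Zeb1-CKO libraries, against 7.04 and 10.9 FPKM in the controls (log2 fold change 1.05, SE 0.21; limma's adjusted p = 0.0688).

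**Figure D4:**
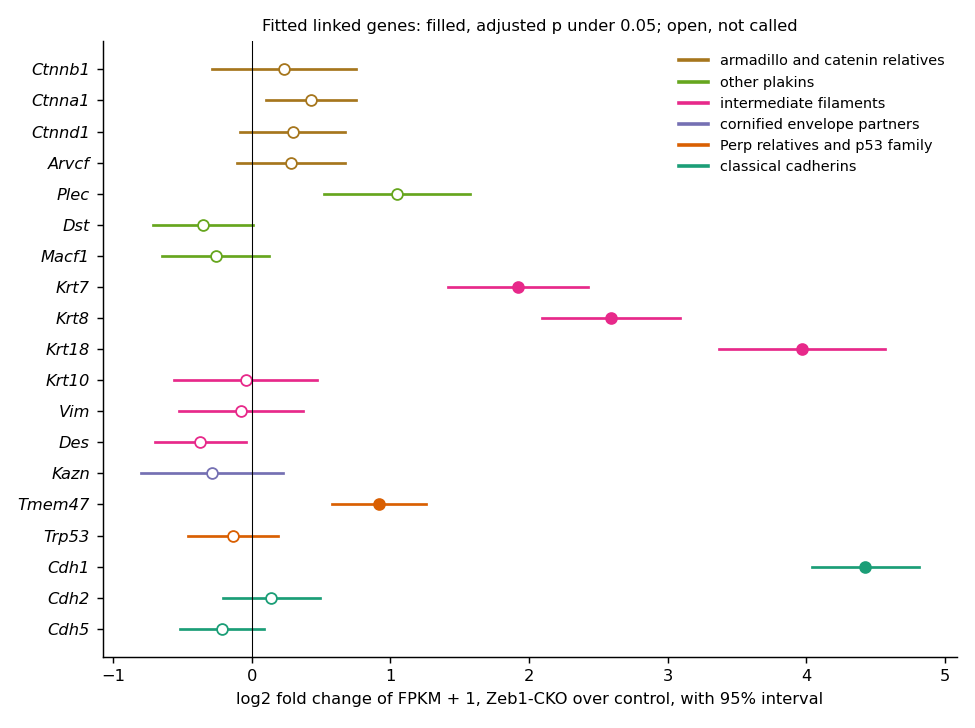
Log2 fold change of FPKM + 1, Zeb1-CKO over control (horizontal axis, points), with 95% intervals (lines) for the 19 fitted genes of the linked lists, coloured by list; filled points have an adjusted p under 0.05. Cdh1, Krt18, Krt8, Krt7 and Tmem47 are filled, at 4.43, 3.97, 2.59, 1.92 and 0.92.

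Since desmosomes mark epithelia, markers of epithelia near the retina were measured beside these genes. Of the 12 markers of surface and corneal epithelium and of lens, all 12 were under 1 FPKM in every library. Such a level is common, as only 13438 to 13784 of the 54446 genes reached 1 FPKM in a library. The summed level of the 7 surface and corneal markers, led by Krt15 and Aldh3a1, was 0.120 and 0.190 FPKM in Zeb1-CKO libraries, against 0.281 and 0.592 FPKM in the controls, and Krt14 and Krt13 were listed at 0 in all 4. The 5 lens markers, led by Bfsp1 and Crygs, summed to 0.388 and 0.0523 FPKM in Zeb1-CKO libraries, against 1.13 and 0.617 FPKM in the controls. The 6 markers of the retinal pigment epithelium summed to 2.999 and 3.396 FPKM in Zeb1-CKO libraries, against 1.90 and 2.28 FPKM in the controls; 2 of them were fitted, Best1 and Pmel, and neither passed. Pmel, a gene of pigment granules, was at 1.42 and 1.62 FPKM in Zeb1-CKO libraries, against 0.494 and 0.514 FPKM in the controls, so the genotypes did not overlap (limma's adjusted p = 0.143). Rpe65, which defines that epithelium, was listed at 0 in both Zeb1-CKO libraries and was at 0.0190 and 0.0191 FPKM in the controls. Of other cell types, microglial and myeloid markers summed to 22.6 and 10.5 FPKM in Zeb1-CKO libraries, against 26.1 and 80.5 FPKM in the controls. Lyz2 and Tyrobp were the most abundant over the 4 libraries, and Lyz2 was at 14.1 FPKM in Zeb1-CKO 1 and 1.48 FPKM in Zeb1-CKO 2. None of the 7 fitted markers had a log2 fold change above 0, and none passed. P2ry12, which was not fitted, lay the other way, at 0.861 and 0.993 FPKM in Zeb1-CKO libraries, against 0.615 and 0.441 FPKM in the controls. The photoreceptor marker Sag was at 9.21 and 11.7 FPKM in Zeb1-CKO libraries, against 15.7 and 1.87 FPKM in the controls. Markers of Müller glia and astrocytes, led by Apoe and Gfap, summed to 291 and 326 FPKM in Zeb1-CKO libraries, against 279 and 310 FPKM in the controls. Within that sum, members lay on both sides: Glul was at 44.9 and 45.3 FPKM in Zeb1-CKO libraries, against 71.9 and 64.8 FPKM in the controls (limma's adjusted p = 0.0837), while Gfap was at 68.2 and 137 FPKM in Zeb1-CKO libraries, against 56.7 and 60.6 FPKM in the controls (limma's adjusted p = 0.323). None of the 5 fitted glial markers passed. The part of surface and corneal epithelium, lens, pigment epithelium, microglia and myeloid cells, photoreceptors and glia in the desmosome values was not tested.

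With no filter on low values, 38986 genes were tested, of which 0.18% were called higher and 0.0385% lower, and of the 10 desmosome genes only Pkp3 was called higher (limma's adjusted p = 0.0260) and none lower. When 1 library was left out, the log2 fold changes of the 4 genes stayed above 0 wherever the gene was fitted. Their calls did not all hold, and calls over all genes also fell in these fits. Pkp3 was called without any 1 of the 4 libraries, with limma's adjusted p of up to 0.0350 in these fits. Pkp2 and Perp were called without either control but not without a Zeb1-CKO library. For Pkp2, limma's adjusted p was 0.05001 without Zeb1-CKO replicate 1 and 0.0694 without Zeb1-CKO replicate 2, at log2 fold changes of 2.60 and 2.13. For Perp it was 0.146 and 0.135, at log2 fold changes of 1.453 and 1.496. Dsg2 had a limma adjusted p of 0.0989 without Zeb1-CKO replicate 2, at a log2 fold change of 2.08, and fell under the mean of 1 FPKM without Zeb1-CKO replicate 1. Among the linked genes, the call of Krt8 ended without either Zeb1-CKO library (limma's adjusted p of 0.0501 and 0.0603) and that of Tmem47 without any 1 library (0.0822 to 0.163), and Krt7 fell under the mean without either Zeb1-CKO library. A fit without 1 library has fewer samples, with a lone library assumed to vary like the other genotype.

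**Figure D5:**
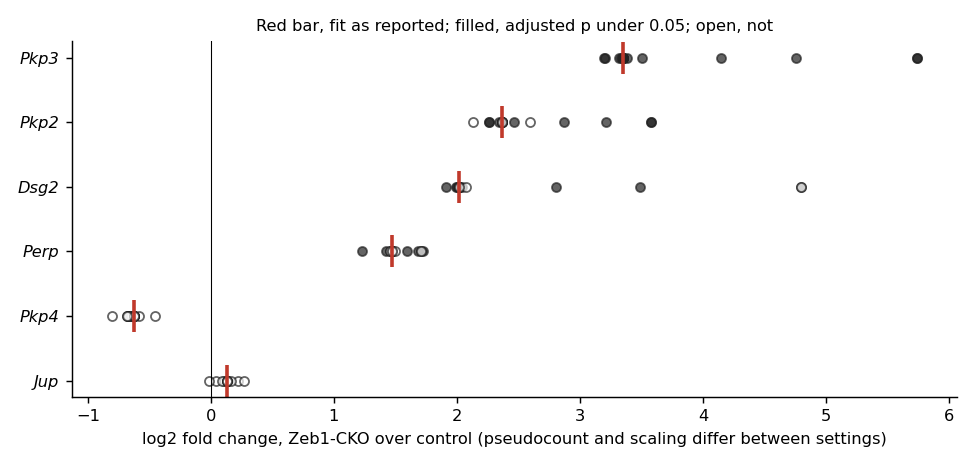
Log2 fold change, Zeb1-CKO over control (horizontal axis), of the 6 fitted genes in the fit as reported (red bar) and under each alternative (points, filled where the adjusted p was under 0.05). All points of Pkp3, between 3.20 and 5.74, are filled, and those of Jup and Pkp4 are open.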

How the data were processed

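RNA was measured in 4 libraries of 100 sorted retinal endothelial cells. Per the labels' protocols, cDNA was made with a SMART-Seq v4 kit and libraries with a NuGEN Ovation kit, which keep no strand. Trimmomatic 0.36, HISAT2 2.1.0 and StringTie 1.3.3 and the build mm10 are named per the submitters' processing notes, without settings or annotation release. The authors deposited FPKM per gene; their unit was taken from the values and tools, as the header gives none. FPKM are not counts, so no count test was run.

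Columns were matched to samples by name. Of 54446 gene identifiers, 53229 carried the same version in GENCODE M21, with the same start site, including all 10 members; spans and transcript lengths come from there. Depth was estimated from genes with 1 transcript over 600 bases, where 17.2% to 21.6% of values lay within 0.02 of a whole step (4% would by chance); the depths given take a step as 1 fragment. Fragments are such estimates on the longest transcript, and amplified reads without molecular identifiers overstate independent molecules.

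The test was limma 3.58.1 under R 4.3.3 on log2(FPKM + 1), a pseudocount of 1, with a mean-variance trend and genotype as the only term. Its p-values were Benjamini-Hochberg adjusted over 13651 genes. It was also run on simulated libraries with known changes and independent normal noise. These did not model counts of few fragments, and no error rate is drawn from them. The size and order of fold changes of genes low in controls depend on the pseudocount and on the scaling. A BLAST search found no other gene that matched 80% of the shorter transcript of a member at 95% identity. Named genes are the 10 members, Zeb1, called linked genes, the most abundant of each list, the leading markers of other cell types (highest mean over the 4 libraries) and the 3 genes closest to the called member with the smallest p. Des, Tagln, Rpe65, Pmel, Glul, Ctnna1, P2ry12, Cldn5 and the listed genes without a call or at 0 were added after their values were seen. Not every gene under this rule is reported here. The members and lists were chosen with earlier results of these data known. The alternatives changed the replicate block, the libraries, the pseudocount, the filter, the scaling, the variance model and the threshold. Proteins were not used here. Figures were drawn with matplotlib 3.10.9.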

Additional observations from a re-analysis of the deposited data

How the results depend on the processing

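The count of desmosome genes called higher, 4, ranged from 1 to 4 when each library was left out in turn, was 1 with no filter on low values and 2 with no filter and a pseudocount of 0.1, an alternative chosen after seeing the data. With no filter, 38986 genes were tested, of which 0.18% were called higher; Pkp3 kept its call (adjusted p = 0.0260), while Pkp2 (0.0779), Dsg2 (0.0959) and Perp (0.150) did not. The count of linked genes called higher, 5, ranged from 2 to 5 with a library left out and was 3 with no filter, at either pseudocount. No desmosome or linked gene was called lower under any of these alternatives. Over all genes, 304 were higher and 123 lower; leaving out a library gave 48 to 238 higher and 15 to 64 lower, no filter gave 70 and 15, no filter with a pseudocount of 0.1 gave 92 and 24, and an adjusted p under 0.1 gave 553 and 306. With the replicate block, 155 were higher and 38 lower, but the 4 desmosome calls held, with adjusted p between 0.00579 (Pkp3) and 0.0469 (Perp); Tmem47 (0.0916) lost its call and no other linked gene did. The titles share only replicate numbers, and the deviations of same-numbered libraries from their genotype means had a weak negative correlation across genes (r = -0.12). A crossed pairing, added after seeing the data, gave 306 higher and 149 lower and the same count of 4 desmosome calls. The log2 fold change of Jup ranged from -0.014 without control replicate 1 to 0.27 without control replicate 2; the cause was not tested. No other fitted desmosome gene changed direction. Another scaling moved the median of all genes by less than 0.1. At the estimated depth, Dsp, Dsc2, Ppl and Evpl, and the controls of Dsg2, Pkp3 and Pkp2, rest on at most 71.6 fragments a library. Intervals, given only for fitted genes, come from the scatter between libraries. With 2 libraries a genotype, that scatter is a rough measure of the noise of few fragments. The labels do not say whether it holds differences between animals.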
